A study of Arabidopsis thaliana with 12 samples.

Results

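The genes followed here are 8 nuclear genes that encode parts of the mitochondrial ATP synthase (AT5G47030 and AT4G26210), of complex I (AT3G06310, AT4G16450 and AT5G52840) and of complex III (MPPBETA, AT3G27240 and AT5G25450) of Arabidopsis thaliana. They stood among 13356 genes that had a named probe set of their own, and each had 1 single-gene probe set. They had been picked by name because an earlier reading of the same arrays had found their intensity at 4 h to differ between oligomycin and ethanol. All differences at 4 h are therefore given for them as a description, without a test. Only the differences at 1 h, which were not the contrast of the choice, were tested. Their standard errors rest on a spread per probe set that was fitted over the arrays of both times. The 1 h test is therefore not fully independent of the choice. With only the 6 arrays of 1 h in the fit, none of the 8 genes passed either.

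The ATP synthase lets protons flow back through its membrane part, Fo, and uses that flow to turn the central stalk inside the catalytic head, F1, where ATP is made. Oligomycin blocks the proton path in Fo. The proton gradient itself is built by complexes I, III and IV, which pass electrons from NADH through ubiquinone and cytochrome c to oxygen. Most subunits of these complexes are made from nuclear genes and imported, and a minority is encoded in the mitochondrial genome.

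The plants were whole Col-0 seedlings grown in flasks of MS medium with sucrose under long days until day 9, kept in darkness for 24 h and left in darkness during treatment. Measured were 4 groups of 3 biological replicates each: ethanol for 1 h, 10 µM oligomycin for 1 h, ethanol for 4 h and 10 µM oligomycin for 4 h. Ethanol was the solvent, and all 4 groups shared the wild-type background and the dark treatment. The labels did not say whether replicates were separate flasks or separate days, so the p-values measure the spread between these samples. Whole seedlings were extracted, and less RNA per cell and fewer cells of a type cannot be told apart.

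Values are linear array intensities, and 3 arrays per group limited the precision. Levels are compared between groups for 1 probe set and never between probe sets. A log2 change is a difference of group means of log2(intensity + 16), given with its standard error where it was tested. Arrays of a group correlated with r of 0.975 or more, and the lowest value was that between the first and second ethanol arrays of 1 h. The median intensity of the oligomycin arrays of 4 h was 36.2 to 37.35, against 42.9 to 46 on the other 9 arrays, while the 2% trimmed mean lay between 99.2 and 99.3 on all 12. The median log2 change of all 22746 tested probe sets was −0.04 at 1 h and −0.10 at 4 h, and −0.18 at 4 h for the 6688 with a mean intensity of at least 100. None of 16 leaf markers or 3 dark markers had a single-gene probe set among the 14016 that were named. Of 13 root markers only EXPA7, an expansin of root hair cells, had one, and its mean was 20.3 ± 10.4 in ethanol at 1 h, so the labelled tissue could not be checked with these markers.

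Among the ATP synthase genes, both members had their lowest group mean in oligomycin at 4 h, and only AT4G26210 was already lower at 1 h on every array. AT5G47030 encodes the delta subunit of the central stalk of F1 (probe set 248825_at). Its intensities in ethanol were 1197, 977.3 and 1247.6 at 1 h and 1284.1, 1229.3 and 1180 at 4 h. In oligomycin they were 1125.3, 1144 and 1158 at 1 h and 1108, 964.3 and 922.1 at 4 h. The groups overlapped at 1 h and did not overlap at 4 h, where the mean in oligomycin differed from that in ethanol by −18.9% (log2 change −0.30). At 1 h the log2 change was 0.01 ± 0.10 (limma adjusted p = 0.982), and it was −0.10 without the second ethanol array, whose 977.3 was the lowest of its group. Without the first or the third ethanol array of 1 h the change was 0.05 or 0.08.

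AT4G26210 encodes a g subunit of Fo, the membrane part on which oligomycin acts (probe set 253986_at). Ethanol arrays gave 394.1, 420.2 and 385.6 at 1 h and 348.4, 409.9 and 406.9 at 4 h. Oligomycin arrays gave 336.6, 339 and 324.2 at 1 h and 300.7, 283.5 and 262.7 at 4 h. All 6 oligomycin arrays lay below all 6 ethanol arrays, and those of 4 h lay below those of 1 h. The log2 change at 1 h was −0.25 ± 0.09 with a 95% interval of −0.44 to −0.06, but it did not pass the test over all probe sets (limma adjusted p = 0.178). At 4 h the difference was −27.3% of the ethanol mean (log2 change −0.44).

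Besides AT4G26210, both other genes listed for the g subunit were measured. AT2G19680 had a mean of 224 ± 14.3 in ethanol against 249 ± 21.1 in oligomycin at 1 h, and of 231 ± 7.21 against 192 ± 19.8 at 4 h (log2 change −0.25, limma adjusted p = 0.0595). AT4G29480 had a mean of 738 ± 27.4 in ethanol against 787.5 ± 136 in oligomycin at 4 h (log2 change 0.08, limma adjusted p = 0.678), with 938.7 on the first oligomycin array and 750.1 and 673.7 on the others. Ratios of probe sets within an array do not depend on the scaling of that array. At 1 h the log2 ratio of AT4G26210 to AT2G19680 was 0.84 ± 0.15 in ethanol and 0.42 ± 0.15 in oligomycin (SD, n = 3 each), without overlap. At 4 h it was 0.75 ± 0.13 and 0.56 ± 0.25, and the groups overlapped. The exact two-sided permutation p of the 1 h ratio was 0.1, the smallest that 3 against 3 arrays allow, and 0.3 after adjustment over the 6 gene pairs compared this way. The log2 ratio of AT4G26210 to AT4G29480 was −0.94 ± 0.06 in ethanol and −1.16 ± 0.16 in oligomycin at 1 h (exact permutation p = 0.1, adjusted 0.3), and −0.93 ± 0.09 and −1.47 ± 0.15 at 4 h.

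**Figure D1:**
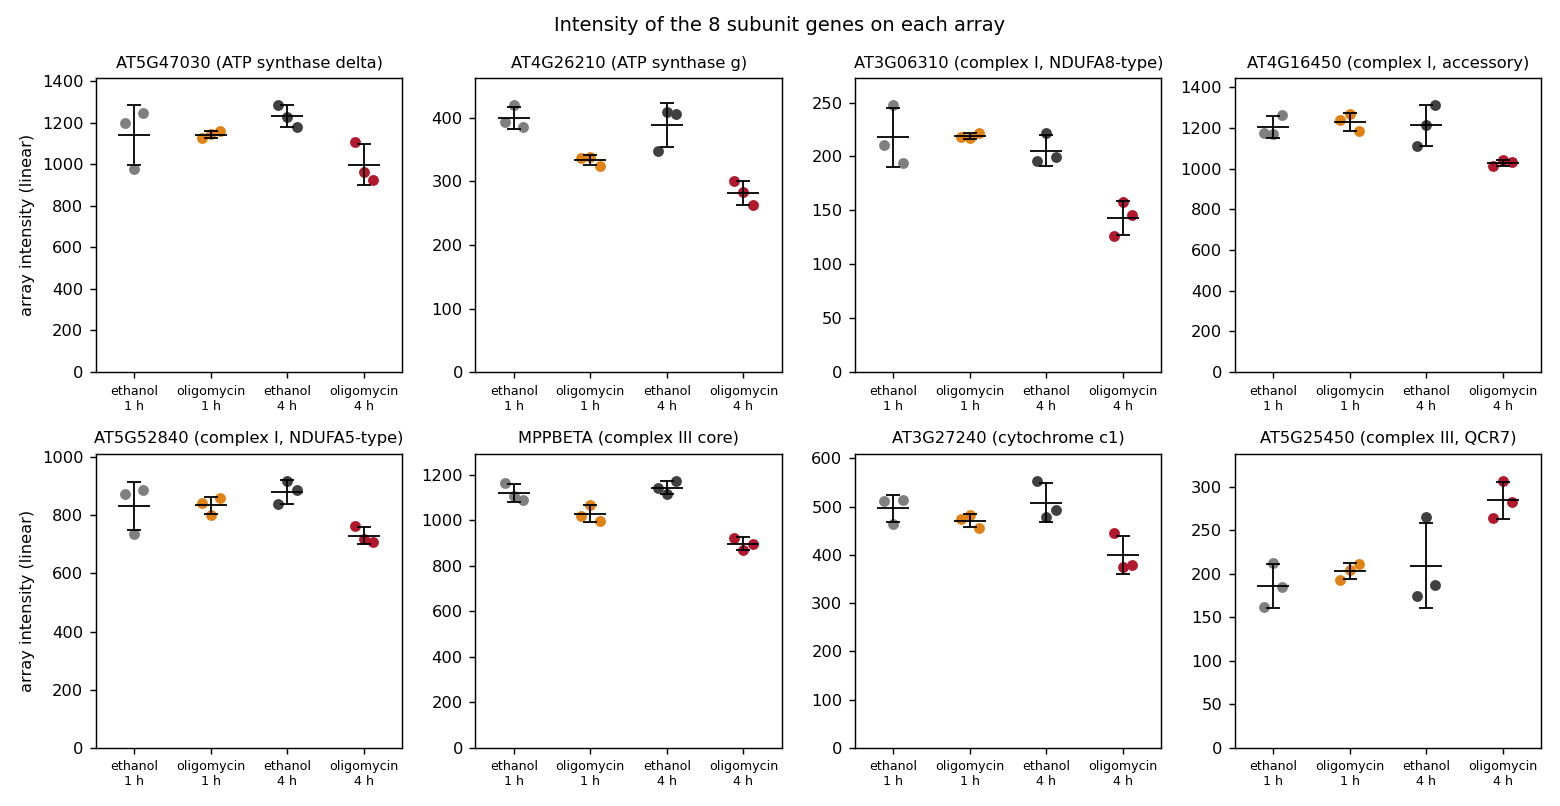
Linear array intensity of the 8 genes in the 4 groups (points: single arrays, n = 3; horizontal bar and whiskers: mean ± SD; each panel has its own axis from 0). In 7 panels the oligomycin group of 4 h has the lowest mean, and for AT5G25450 it has the highest.

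The 3 complex I genes had no difference that passed the test at 1 h and lay lower in oligomycin at 4 h with no overlap between the groups. AT3G06310 encodes a subunit of the NDUFA8 type, a small cysteine-rich protein of the membrane arm (probe set 258881_at). In ethanol it gave 210.9, 247.6 and 194.3 at 1 h and 195.6, 221.6 and 199.3 at 4 h. In oligomycin it gave 218.2, 217 and 221.8 at 1 h and 126.3, 157.4 and 145.6 at 4 h. The log2 change was 0.01 ± 0.10 at 1 h (limma adjusted p = 0.970). At 4 h the difference was −30.4% of the ethanol mean (log2 change −0.48), the lowest of the 8 genes, and the 3 arrays lay below the other 9.

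The second gene for the NDUFA8 type, AT5G18800, had a mean of 447 ± 33.7 in ethanol against 499.5 ± 103 in oligomycin at 4 h. Its 3 oligomycin arrays gave 617.1, 428.2 and 453.3, so that only the first lay above the ethanol arrays (limma adjusted p = 0.430, log2 change 0.14, and −0.02 without that array). The log2 ratio of AT3G06310 to AT5G18800 was −1.03 ± 0.20 in ethanol and −1.05 ± 0.07 in oligomycin at 1 h (exact permutation p = 0.9, adjusted 1). At 4 h it was −1.12 ± 0.02 in ethanol and −1.79 ± 0.44 in oligomycin, without overlap.

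AT4G16450 encodes an accessory subunit of complex I (probe set 245394_at). Its ethanol arrays gave 1176.3, 1170.4 and 1266 at 1 h and 1109, 1215.9 and 1312.2 at 4 h. Its oligomycin arrays gave 1238, 1268.7 and 1183 at 1 h and 1010.9, 1042.8 and 1031.1 at 4 h. The oligomycin arrays of 4 h were the lowest 3 of the 12, and the other groups overlapped. The log2 change at 1 h was 0.03 ± 0.08 (limma adjusted p = 0.917), and the difference at 4 h was −15.2% (log2 change −0.23).

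AT5G52840 encodes a subunit of the NDUFA5 type, which sits in the peripheral arm where NADH is oxidised (probe set 248288_at). It gave 873.5, 736.3 and 886.9 in ethanol and 841.5, 801.7 and 858.8 in oligomycin at 1 h. At 4 h it gave 837.6, 918.6 and 888 in ethanol and 762.7, 719.8 and 706.5 in oligomycin. The groups overlapped at 1 h (log2 change 0.01 ± 0.09, limma adjusted p = 0.984) and not at 4 h, where the difference was −17.2% (log2 change −0.27). As for AT5G47030, the second ethanol array of 1 h was the lowest of its group, and without it the change at 1 h was −0.08. Without the first or the third ethanol array of 1 h the change was 0.04 or 0.05.

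The complex III genes moved apart at 4 h, with MPPBETA and AT3G27240 lower in oligomycin and AT5G25450 higher. MPPBETA encodes a core subunit of complex III, and in plants this protein is also part of the peptidase that cuts targeting sequences from imported proteins (probe set 258862_at). Ethanol arrays gave 1162.7, 1107.2 and 1090.2 at 1 h and 1141, 1115.8 and 1173.2 at 4 h. Oligomycin arrays gave 1017.8, 1068.9 and 998.1 at 1 h and 924, 868.5 and 896.8 at 4 h. As for AT4G26210, no oligomycin array reached an ethanol array at either time. The log2 change at 1 h was −0.12 ± 0.07 (95% interval −0.28 to 0.04, limma adjusted p = 0.478), and the difference at 4 h was −21.6% (log2 change −0.35).

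AT1G51980 encodes the alpha partner of MPPBETA in the same peptidase and complex. Its means were 1061 ± 167 in ethanol and 882 ± 50 in oligomycin at 4 h (log2 change −0.25, limma adjusted p = 0.133), and the groups overlapped. The log2 ratio of MPPBETA to AT1G51980 was 0.28 ± 0.11 in ethanol and 0.21 ± 0.15 in oligomycin at 1 h (exact permutation p = 0.6, adjusted 0.9). At 4 h it was 0.12 ± 0.19 and 0.03 ± 0.06, again with overlap.

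AT3G27240 encodes cytochrome c1, the heme protein that hands electrons to cytochrome c (probe set 257148_at). It gave 511.7, 463.5 and 513.2 in ethanol and 473.4, 482.1 and 456.2 in oligomycin at 1 h. At 4 h it gave 553.5, 477.9 and 492.7 in ethanol and 445.7, 374 and 378.9 in oligomycin. The groups overlapped at 1 h (log2 change −0.07 ± 0.09, limma adjusted p = 0.782), and all 3 oligomycin arrays of 4 h were below the other 9 (−21.4%, log2 change −0.34). The other cytochrome c1 gene, AT5G40810, had a similar mean difference at 4 h, from 466 ± 53.4 to 373 ± 26.2 (log2 change −0.31), which narrowly missed the threshold (limma adjusted p = 0.0651). The log2 ratio between both genes was 0.22 ± 0.12 and 0.20 ± 0.15 at 1 h (exact permutation p = 0.6, adjusted 0.9) and 0.13 ± 0.27 and 0.10 ± 0.19 at 4 h, in ethanol and oligomycin.

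AT5G25450 encodes QCR7, a small subunit of complex III (probe set 246944_at), and was the 1 member with a higher mean in oligomycin at 4 h. Its ethanol arrays gave 161.6, 212 and 185.1 at 1 h and 175, 265.7 and 187.7 at 4 h. Its oligomycin arrays gave 192.9, 204.9 and 211.5 at 1 h and 264.6, 307 and 282.4 at 4 h. The groups of 4 h overlapped, because the second ethanol array (265.7) lay above the first oligomycin array (264.6). The difference was 35.9% of the ethanol mean (log2 change 0.43). With 1 array left out it ranged from 0.33 without the first ethanol array of 4 h to 0.61 without the second. At 1 h the log2 change was 0.12 ± 0.14 (limma adjusted p = 0.744).

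The other gene for QCR7, AT4G32470, had a mean of 1360 ± 21 in ethanol against 1273 ± 177 in oligomycin at 4 h (log2 change −0.10, limma adjusted p = 0.492). Its oligomycin arrays were spread from 1081.3 to 1430.1, and without the second of them the log2 change was 0.01. The log2 ratio of AT5G25450 to AT4G32470 was −2.71 ± 0.28 in ethanol and −2.68 ± 0.09 in oligomycin at 1 h (exact permutation p = 1). At 4 h it was −2.72 ± 0.34 and −2.15 ± 0.31, with overlap.

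**Figure D2:**
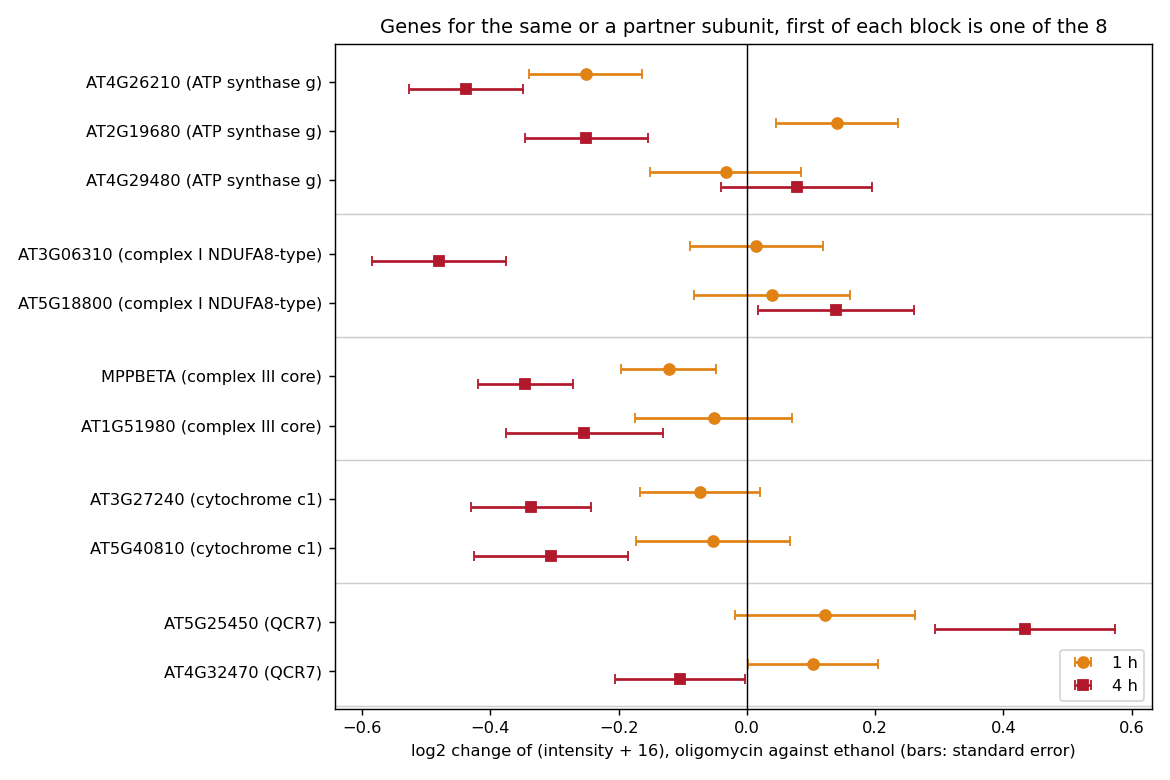
Log2 change between oligomycin and ethanol (horizontal axis, ± standard error from the fit) at 1 h and 4 h for 5 members and the genes for the same or a partner subunit. At 4 h AT3G06310 lies at −0.48 and AT5G18800 at 0.14, while AT3G27240 and AT5G40810 lie at −0.34 and −0.31.

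At 1 h none of the 8 genes passed the limma test, where 3.44% of all probe sets did, 2.3% higher and 1.14% lower. At an unadjusted p under 0.05 there was 1, AT4G26210. Groups without overlap at 1 h, with oligomycin lower, were found for 2 of 8 genes (AT4G26210 and MPPBETA) against 12.9% of all probe sets. None had the opposite order, which 6.85% of all probe sets showed. Of the other 6 genes each had a 95% interval of its 1 h change that held 0, from −0.15 to 0.21 for AT4G16450, the narrowest, to −0.18 to 0.43 for AT5G25450, the widest. Scaling to the hybridisation controls put all 8 changes of 1 h below 0, between −0.39 and −0.01, and none was called, with the median of all probe sets at −0.14.

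At 4 h all 8 genes were below the threshold of adjusted p that had chosen them, 7 lower and 1 higher, where 36.7% of all probe sets were called, 25.3% lower and 11.4% higher. The choice used this contrast, so nothing is read from that count. Ranges did not overlap for 7 of the 8, each with oligomycin lower, while 46.8% of all probe sets had no overlap, 32.3% lower and 14.5% higher. The adjusted p of 8 members was under the threshold with all 12 arrays, and that of 3 to 8 when 1 array was left out, 3 without the second or the third oligomycin array of 4 h. Just inside the threshold were AT5G47030 (log2 change −0.30) and AT4G16450 (−0.23), and just outside it were CYTC-2, a cytochrome c gene (0.37), and AT5G61310, a COX5c subunit (−0.23). Arrays of oligomycin at 4 h were the lowest 3 of 12 for 5 members, where 22.5% of all probe sets had this order. For AT5G47030 and AT5G52840 only the second ethanol array of 1 h was in the way, and without it the count was 7 (23.6% of all probe sets). That array was left out because of its values. The counts of ranges and of lowest arrays use the 4 h arrays of the choice too, so nothing is read from them.

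The order of the group means differed among the 7 lower genes. In AT4G26210, MPPBETA and AT3G27240 the oligomycin group of 1 h was second lowest, and in the first pair it overlapped neither neighbour group below nor above. In AT5G47030, AT5G52840 and AT4G16450 the second lowest group was ethanol at 1 h, and only in AT4G16450 did it not overlap the oligomycin group of 4 h. In AT3G06310 and AT4G16450 the oligomycin group of 1 h had the highest mean, but it overlapped the ethanol groups. For AT5G25450 the means ran from ethanol at 1 h through oligomycin at 1 h and ethanol at 4 h to oligomycin at 4 h, and each neighbour pair overlapped.

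Between 1 h and 4 h in ethanol the log2 changes of the 8 genes lay between −0.07 (AT3G06310) and 0.14 (AT5G25450). In oligomycin they lay between −0.57 (AT3G06310) and 0.46 (AT5G25450). The effect of oligomycin at 4 h minus that at 1 h ranged from −0.50 for AT3G06310 and −0.31 for AT5G47030 to −0.19 for AT4G26210, and was 0.31 for AT5G25450. These differences share the 4 h arrays with the choice of the genes and were not tested.

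Of 111 nuclear genes listed for the 5 respiratory complexes and cytochrome c, 67 had a named single-gene probe set, and the 8 members were among them. At 1 h none of the 67 was called by limma, and 1 higher and 2 lower had an unadjusted p under 0.05. Their median log2 change was −0.01, against −0.04 for all probe sets. At 4 h limma called 12 lower (17.9%) and 2 higher, with a median of −0.12, but 7 of the lower and 1 of the higher were members chosen by this contrast. Of the 59 others 5 were called lower (8.47%) and 1 higher, where 25.3% and 11.4% of all probe sets were called. Their median was −0.09 against −0.10 for all probe sets. Most of the 59 had a mean intensity of at least 100. Of the 6688 probe sets that bright, 36.9% were called lower at 4 h, with a median of −0.18. The difference from that background was not tested. These 59 are what the choice left over, so their share is a description too. Over all 67, centring on array medians left 3 lower and 5 higher, with the median at 0.04 against 0.06 for all probe sets. Quantile normalization left 20 lower and 1 higher, with the median at −0.18 against −0.05. Scaling to the hybridisation controls left 3 lower and 2 higher, with the median at −0.07 for both. In the same order the medians of the 59 others were 0.07, −0.17 and −0.04. Without the second or the third oligomycin array of 4 h, 6 and 7 of the 67 were called lower. By complex and without the members, none of 5 ATP synthase genes, 3 of 29 of complex I, none of 4 of complex II, none of 8 of complex III and 2 of 13 of complex IV with cytochrome c were called lower.

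The other called genes at 4 h had not been chosen as members and included the 2 largest changes of the 67. AT5G27760, a protein of the hypoxia-responsive family listed here with complex IV, rose from 481.7, 573.6 and 434.8 in ethanol to 1897.8, 2112.3 and 2255.8 in oligomycin (log2 change 2.04 ± 0.14, limma adjusted p = 2.57e-07). AT3G57785, a complex I subunit of the NDUFB11 type, fell from 333.1, 332.6 and 346.3 to 210, 206.7 and 181.1 (log2 change −0.72 ± 0.09, limma adjusted p = 4.56e-05). For both genes the groups of 4 h were far apart, and at 1 h neither passed the test (log2 change 0.25 and −0.10). AT2G42310, also of the NDUFB11 type, fell from 501 ± 21.2 to 407 ± 35.5 (−0.29, limma adjusted p = 0.0205).

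AT1G68680, an accessory subunit of complex I, fell from 132 ± 15.9 to 93.5 ± 5.44 (log2 change −0.43, limma adjusted p = 0.0113). The COX5b genes AT1G52710 and AT1G80230 fell from 52.7 ± 10.2 to 30.5 ± 5.85 and from 473 ± 19.9 to 399 ± 10.9 (−0.56 and −0.24, limma adjusted p = 0.0272 and 0.0327). The call of AT1G68680 ended without the third ethanol array of 4 h (−0.34). Those of AT2G42310, AT1G52710 and AT1G80230 ended for 4, 3 and 4 of the 12 arrays left out, each of 4 h, with log2 changes of −0.24, −0.44 and −0.22 at the smallest. None of these 4 genes was called after median centring or with hybridisation controls, whereas AT5G27760 and AT3G57785 were called under both.

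**Figure D3:**
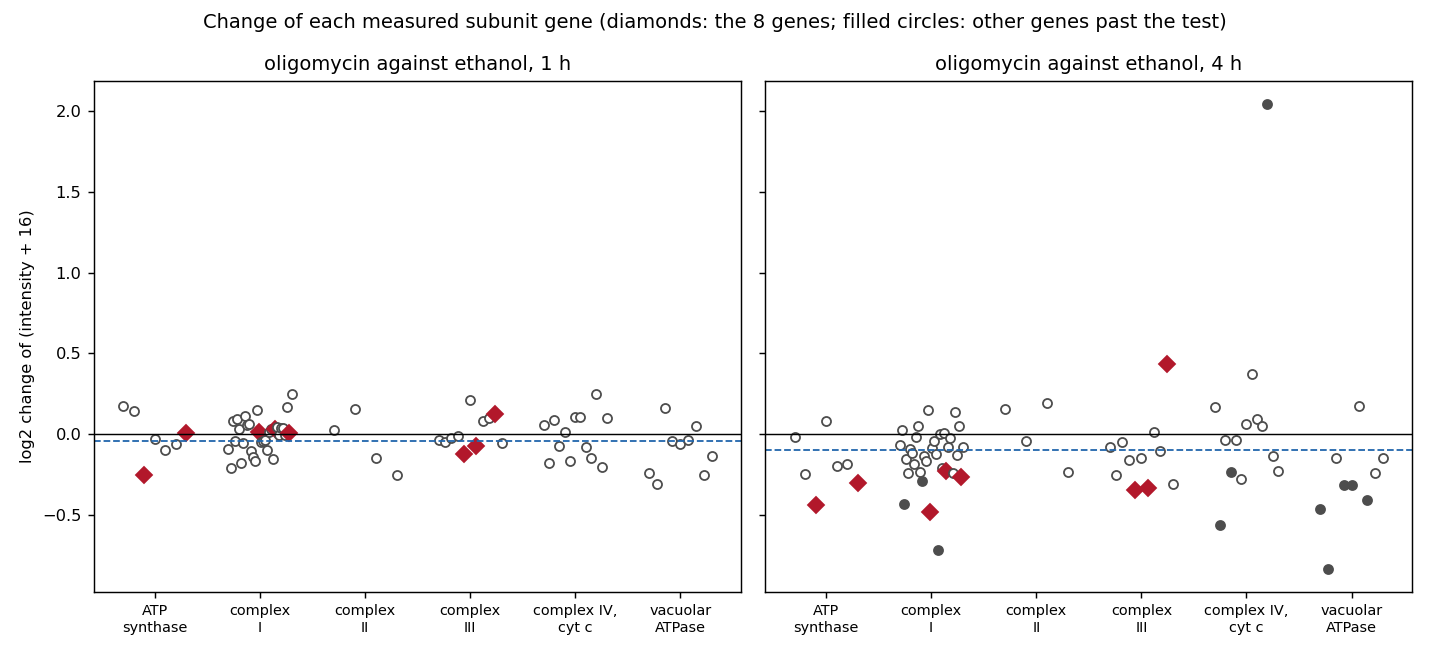
Log2 change between oligomycin and ethanol at 1 h (left) and 4 h (right) for each measured gene of 6 complexes (diamonds: the 8 members; filled circles: other genes with limma adjusted p under 0.05; open circles: the rest; dashed line: median of all probe sets). At 1 h no gene is called, and at 4 h AT5G27760 stands alone at 2.04.

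Other proton-moving ATPases were listed for comparison, since the vacuolar enzyme and that of plastids serve other membranes. Of 9 measured genes of the vacuolar proton ATPase none was called at 1 h and 5 were called lower at 4 h (median −0.31). Of all probe sets 25.3% were called lower at 4 h, and of those with a mean intensity of at least 100 it was 36.9%. VHA-A1 fell from 107 ± 8.13 to 53.3 ± 10.6 (limma adjusted p = 6.82e-05) and VHA-A2 from 218 ± 32.7 to 153 ± 6.87 at 4 h, both genes of the membrane subunit a. The other measured gene of that subunit, VHA-A3, was not called at 4 h (log2 change −0.24, limma adjusted p = 0.144). AT4G32530 of the proteolipid ring fell by 0.41 and AT4G02620, subunit F, by 0.32 on the log2 scale, the last not called when any of 5 arrays of 4 h was left out. Neither of this last pair was called after median centring or with hybridisation controls, and VHA-A2 was not called with the latter. Of 3 nuclear genes listed for the plastid ATP synthase only 1 was measured. This was ATPC1, the gamma subunit, which fell from 1051 ± 156 to 601 ± 65 (log2 change −0.79, limma adjusted p = 0.000146). Whether these lists and the respiratory genes differ was not tested. The genes for mitochondrial ADP, ATP and phosphate carriers (6 listed) and for protein import (22 listed) had no single-gene probe set among the named ones.

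Subunits encoded in the mitochondrial genome pointed the other way at 4 h, with 8 of 10 measured genes called higher and none lower. Of all probe sets 11.4% were called higher. Among them cox2 rose from 22.6 ± 1.87 to 98 ± 3 and nad6 from 13.2 ± 4.14 to 80.8 ± 8.54, and nad1 was called at 1 h too (log2 change 0.74, limma adjusted p = 0.00352). In ethanol the means of these genes lay below the median intensity of every array. For nad1 there were 7 probe sets and for nad5 2, and only the brightest of each gene was used. Brightness was the mean over all 12 arrays, which include oligomycin at 4 h. The other probe sets of nad1 and nad5 are not described here.

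The sizes at 4 h depended on how arrays were brought to a common scale. Centring on array medians left the 7 lower genes between −0.32 (AT3G06310) and −0.07 (AT4G16450) and AT5G25450 at 0.60, with 3 of the 8 under the threshold. Scaling to the hybridisation controls, RNAs of known amount added before hybridisation, gave −0.43 to −0.18 and also 3. Quantile normalization gave −0.49 to −0.33 for the lower genes and 0.40 for AT5G25450, with 7 under the threshold. No member changed its sign at 4 h under any of these scalings.

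**Figure D4:**
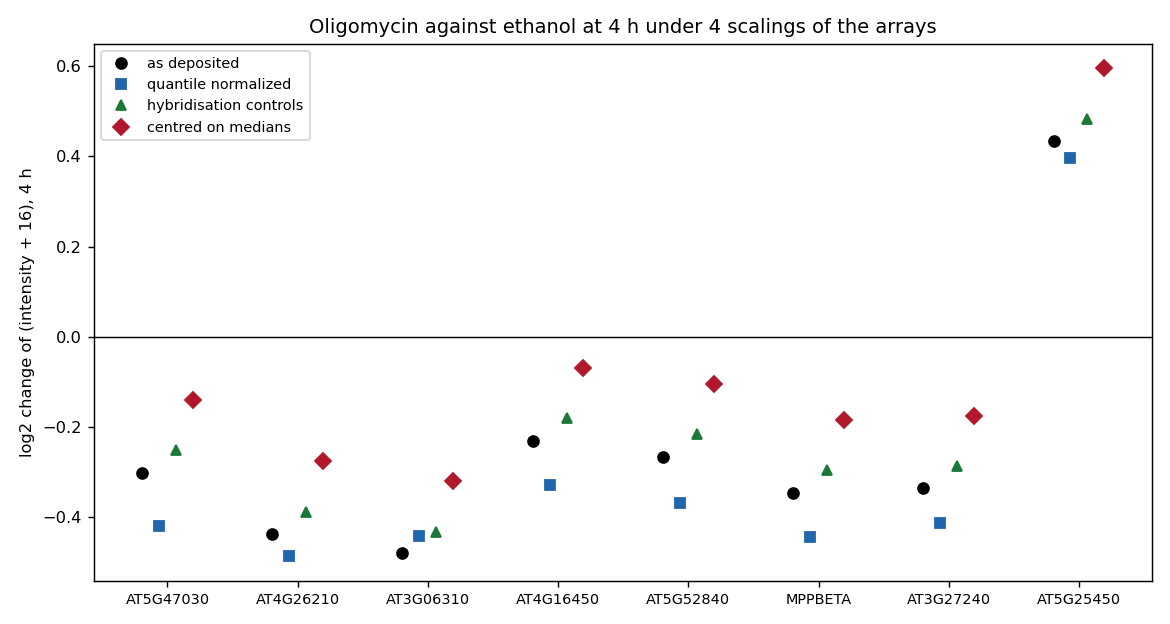
Log2 change between oligomycin and ethanol at 4 h (vertical axis) of the 8 genes with the deposited values and with 3 other scalings of the arrays. Centring on array medians moves each gene up by about the same amount, to −0.07 for AT4G16450 and 0.60 for AT5G25450, and no gene crosses 0.

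Within groups the 8 genes did not vary as one block. After group means were removed, AT5G47030 and AT3G27240 deviated together over the 12 arrays (r = 0.79), as did AT5G47030 and AT5G52840 (r = 0.76), whereas AT3G06310 went against AT3G27240 (r = −0.85) and AT5G47030 (r = −0.83). The median over the 21 pairs of the 7 lower genes was 0.08. AT3G06310 and AT5G25450 were each highest, within the ethanol group, on the second array of either time, at 247.6 and 212 for 1 h and 221.6 and 265.7 for 4 h. These values are descriptions over arrays that share a scaling, with 8 degrees of freedom left.

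Over all 12 arrays the profile of each gene was set against 3305 other single-gene probe sets with a mean intensity of at least 100. The 2 most alike to MPPBETA were GH3.17, which joins auxin to amino acids, and AT5G60520, with r = 0.98 for both, and their log2 changes at 4 h were −1.76 and −1.74. For AT5G47030 and AT5G52840 they were AT2G43945 and AT2G17340 in both cases, with r from 0.93 to 0.96. AT3G06310 was closest to AT5G57120 and AT4G33960 (r = 0.96 for both), AT4G26210 to AT3G61240 and AT5G62650 (r = 0.95 for both) and AT3G27240 to AT5G50000 and AT2G01970 (r = 0.96 for both). AT4G16450 was closest to AT1G57620 (r = 0.95) and AT1G15710 (r = 0.94), and AT5G25450 to AT3G07910 and AT5G57060 (r = 0.94 and 0.93). All these profiles share the step on the oligomycin arrays of 4 h, and no subunit of the respiratory lists was among the 2 nearest of any member. Only 67 respiratory genes were measured, few beside 3305 candidates, so nothing is read from this absence.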

How the data were processed

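The deposited table held array intensity per probe set for 12 arrays, linear values between 0 and 6149.7 with 166 zeros. Per the submitters' processing notes RMA was used, with no version given in the sources used here. Linear values with a common trimmed mean do not have the form of RMA output, so the authors' method is not known here.

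Of 22810 probe sets, 64 controls were left out. Genes were named through the supplied probe table and a TAIR10.1 gene table (13513 probe sets with 1 gene, 503 with several). Only 14016 of the 22746 tested probe sets were named, so genes described as not measured may lie among the unnamed ones. Where a gene had several such probe sets, the brightest was used. Log2(intensity + 16) was fitted with limma 3.58.1 in R 4.3.3, 1 mean per group, two-sided moderated tests, Benjamini-Hochberg over 22746 probe sets, threshold 0.05. The fit was tested on simulated data. Ratios between gene pairs were taken within arrays without a pseudocount. The members, lists and named genes (all members, genes for the same subunit, up to 4 called genes per list, the 2 nearest to the threshold on either side, the 2 most alike) were chosen with earlier results of these data known. The lists were written from general knowledge.
Alternatives tried were a replicate block, an intensity trend with robust prior, array weights, quantile normalization, median centring, scaling to hybridisation controls, a filter on the dimmest 40%, pseudocounts of 1 and 32, only the 6 arrays of 1 time, a threshold of 0.01 and leaving out each array.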

Additional observations from a re-analysis of the deposited data

Results flagged for a closer look

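For 10 of 80 measured list genes that are not among the 8 members (12.5%) the effect of oligomycin differed between 1 h and 4 h by the interaction term of the limma fit, where 17.8% of all probe sets were called. The change at 4 h minus that at 1 h was 1.80 for AT5G27760 and −0.62 for AT3G57785 among the nuclear respiratory genes. It was −0.52 for VHA-A1, −0.46 for AT4G32530 and −0.74 for ATPC1 among the other ATPases. For the mitochondrial genome, with the brightest probe set per gene, it was 1.53 for cox2, 0.65 for nad1, 0.53 for nad4L, 1.18 for nad5 and 1.64 for nad6. Groups of 3 arrays were too small for a check of single outlying arrays.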

How the results depend on the processing

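With 0 members and 0 of 67 respiratory genes called at 1 h, no alternative changed either count. All called probe sets at 1 h numbered 783, against 513 with a pseudocount of 1, 441 with only the 6 arrays of that time, 389 at a threshold of 0.01 and 441 to 833 with 1 array left out. Respiratory genes called lower at 4 h numbered 12, against 20 after quantile normalization, 3 with median centring, 3 with hybridisation controls, 4 at a threshold of 0.01 and 6 to 13 with 1 array left out. Those called higher numbered 2, against 5 with median centring, 1 after quantile normalization, with a pseudocount of 1, with the 6 arrays of 4 h or at 0.01, and 1 to 3 with 1 array left out. Of all probe sets 5751 were called lower at 4 h, and 3423 with median centring. Centring turned the respiratory median from −0.12 to 0.044 and the median of all probe sets from −0.10 to 0.062. The share of falls among calls went from 68.9% to 47.1%. At 1 h that share was 33.2%, and 22.8% with median centring or 51.2% with hybridisation controls. Same replicate numbers in different groups deviated together with r over 0.1 in 3 of 18 pairs, and different numbers in 3 of 36. The median r was 0.01 and −0.003. So few pairs cannot decide whether the numbers pair. The main fit did not use the numbers as pairs. Whether replicates of a number share a flask or day is not given in the labels. The replicate block gave 750 called probe sets at 1 h and 11 lower and 3 higher respiratory genes, with 7 of 8 members under the threshold at 4 h. It changed no call at 1 h among the respiratory genes.

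Uncalled changes at 1 h changed sign. AT5G47030 was −0.060 with array weights, −0.012 after quantile normalization, −0.14 with hybridisation controls and −0.096 to 0.078 with 1 array left out. AT5G52840 was −0.037, −0.0087, −0.14 and −0.077 to 0.055 in the same order. AT4G16450 was −0.00073, −0.0053 and −0.12 under the first 3. AT3G06310 was −0.12 and AT5G25450 −0.013 with hybridisation controls, and AT3G06310 was −0.058 to 0.11 with 1 array left out. At 4 h AT4G29480 was −0.041 after quantile normalization and −0.053 to 0.18 with 1 array left out, AT5G18800 −0.018 to 0.24, and AT4G32470 −0.19 to 0.0078, or 0.058 with median centring. The causes were not tested.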
